A study of Homo sapiens with 2 samples.

Results

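The genes described here are those of the ARHGAP, ARHGEF and DOCK families, which encode GTPase-activating proteins and nucleotide exchange factors of small GTPases of the RHOA, RAC1 and CDC42 kind. They were taken by symbol from the deposited count table: names made of ARHGAP and a number with at most 1 further letter, of ARHGEF and a number with or without a final L, and of DOCK and a number. This gave 72 of the 39720 genes of the table, of which 35 were ARHGAP, 26 ARHGEF and 11 DOCK genes. Their RNA was measured in A549, a human lung adenocarcinoma line, with 1 library from cells given lentivirus for a short hairpin against DEPDC1B (shDEPDC1B) and 1 library from cells given a negative control hairpin (shNC). Both infections used 5 µg/mL polybrene, both cultures were kept in DME-F12 medium with fetal bovine serum and antibiotics, and both libraries came from cells harvested on day 2. The purpose stated for the series is to learn what DEPDC1B does in lung adenocarcinoma. With 1 library per group no difference has a replicate check and no test was run, so the values compare these 2 libraries. The sources used here give neither the hairpin sequence nor whether infected cells were selected.

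RHOA, RAC1, CDC42 and their relatives switch between a resting form bound to GDP and an active form bound to GTP, which engages effectors that assemble actin filaments, contract them or push out protrusions. Exchange factors (GEFs) load GTP and turn the switch on. They include proteins with a DBL homology domain, to which the ARHGEF genes belong, and the structurally unrelated DOCK proteins, which act on RAC1, CDC42 or both. GTPase-activating proteins (GAPs), to which the ARHGAP genes belong, speed the hydrolysis of GTP and turn the switch off. DEPDC1B carries a DEP domain and a domain related to that of RhoGAPs.

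The libraries held 18862371 counts in shDEPDC1B and 18647290 counts in shNC. DEPDC1B had 39 counts in shDEPDC1B, against 329 in shNC, a log2 ratio of -3.00 [-3.51, -2.52]. Square brackets hold exact 95% intervals of the log2 ratio of scaled counts, shDEPDC1B over shNC, and cover counting error only. The epithelial keratin KRT8 had 103507 counts in shDEPDC1B and 106007 in shNC, and all 6 epithelial markers summed to 204411 counts in shDEPDC1B and 208853 in shNC. Of these 6, EPCAM was 1.5-fold or more higher, with 65 counts in shDEPDC1B and 37 in shNC (0.89 [0.29, 1.52]), and none was lower. The pan-leukocyte gene PTPRC had 2 counts in shDEPDC1B and 0 in shNC. Of 10 leukocyte markers 2, CD14 and ITGAM, had 30 counts or more in a library, and the list summed to 399 counts in shDEPDC1B and 296 in shNC. CD14 was 1.5-fold or more higher, with 175 counts in shDEPDC1B and 107 in shNC (0.79 [0.43, 1.15]). ITGAM had 203 counts in shDEPDC1B and 154 in shNC (0.48 [0.17, 0.79]), which did not reach 1.5-fold. No marker of 5 endothelial genes reached 30 counts, and the sums were 224 counts in shDEPDC1B and 207 in shNC for fibroblast markers, and 2169 in shDEPDC1B and 2067 in shNC for neuronal markers. What these markers contribute to the differences below was not tested. In a bulk library fewer cells that carry a transcript and less of it per cell cannot be told apart.

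Most assessed DOCK transcripts were lower in shDEPDC1B and none was higher, whereas the ARHGAP and ARHGEF families held genes of both kinds. A gene was assessed when it had at least 30 counts in the higher library, and is called higher or lower here where the libraries differ 1.5-fold or more and the interval leaves out a ratio of 1. Of the 72 genes 56 were assessed, 20 of them were lower in shDEPDC1B and 6 higher. By the same rule 19.6% of all 13850 assessed genes were lower and 19.2% were higher. The lower genes made up 7 of 10 assessed DOCK, 8 of 26 ARHGAP and 5 of 20 ARHGEF genes, and the higher ones 0 of 10, 4 of 26 and 2 of 20. The median log2 ratio was -1.04 for DOCK, -0.13 for ARHGAP and -0.17 for ARHGEF, beside 0.04 over all assessed genes. At a ratio of at least 2, 11 of the 56 were lower (8.97% of all assessed genes) and 3 were higher (5.86%).

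**Figure D1:**
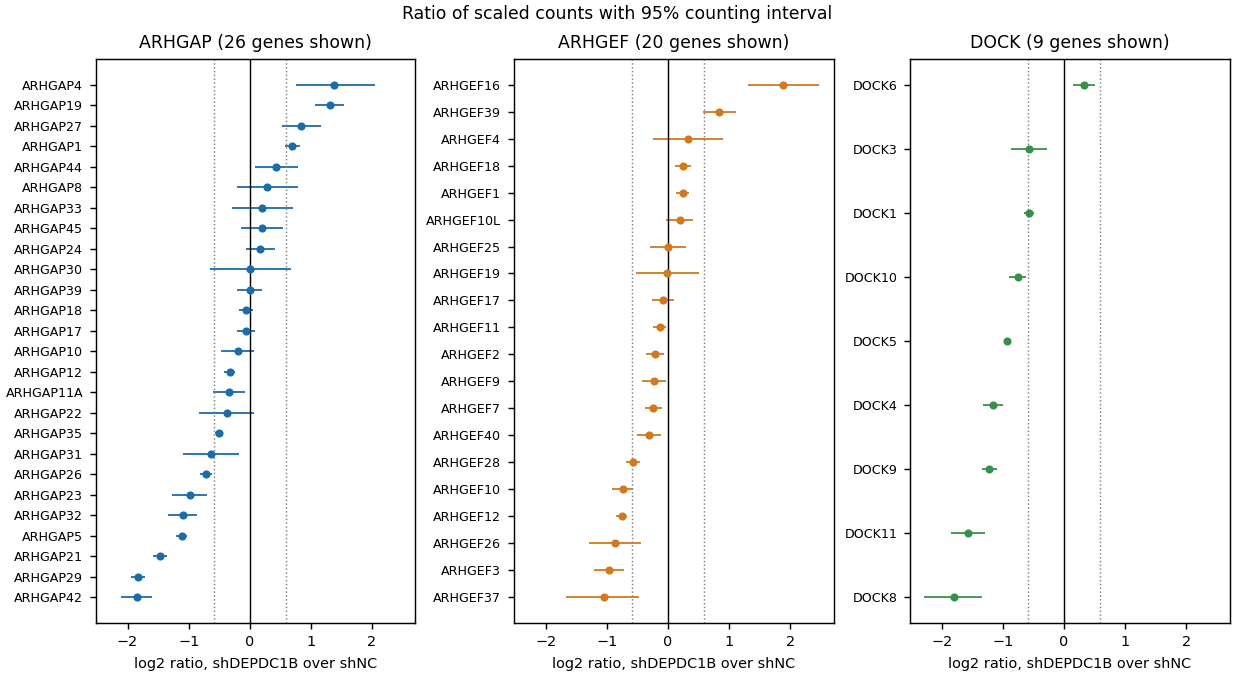
Log2 ratio of scaled counts (shDEPDC1B over shNC) on the horizontal axis for assessed genes, by family; bars are 95% counting intervals, the solid line marks equality and dotted lines mark a ratio of 1.5 in either direction. All DOCK genes drawn but DOCK6 lie left of equality, whereas ARHGAP4, ARHGAP19 and ARHGEF16 lie farthest to the right in their families.

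DOCK1 and DOCK5, which load RAC1 in complex with ELMO proteins, were the most abundant DOCK transcripts in both libraries. DOCK5 had 3712 counts in shDEPDC1B, against 7459 in shNC, and was 1.90-fold lower (log2 ratio -0.93 [-0.98, -0.87]). It supplied 42.4% of all DOCK counts in shDEPDC1B and 44.0% in shNC. DOCK1 had 1846 counts in shDEPDC1B and 2911 in shNC, 1.49-fold lower (-0.58 [-0.66, -0.49]), just outside the 1.5-fold rule. DOCK2, the leukocyte member of this subgroup, had 14 counts in shDEPDC1B and 29 in shNC and was not assessed.

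Of the RAC1 exchange factors DOCK3 and DOCK4, DOCK4 had 416 counts in shDEPDC1B, against 982 in shNC (2.23-fold lower, -1.16 [-1.33, -0.99]). DOCK3, known mainly from neurons, had 162 counts in shDEPDC1B and 255 in shNC, a log2 ratio of -0.57 [-0.87, -0.28] also just outside the rule.

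DOCK6 and DOCK8 belong to another subgroup, in which DOCK8 was lower and DOCK6 was not. DOCK8, whose loss in humans causes an immunodeficiency, had 49 counts in shDEPDC1B, against 180 in shNC, and was 3.48-fold lower (-1.80 [-2.28, -1.33]). DOCK6 had 542 counts in shDEPDC1B and 457 in shNC (0.33 [0.14, 0.51]) and was the one assessed DOCK gene with a ratio above 1. Its longest coding transcript has 61.3% GC, whereas those of the other 9 assessed DOCK genes have 40.1% (DOCK11) to 50.3% (DOCK3). With the linear fit on transcript length and GC content described below subtracted, DOCK6 was at 0.38.

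All members of the CDC42-directed subgroup were lower. DOCK11 had 145 counts in shDEPDC1B, against 454 in shNC, 2.96-fold lower (-1.57 [-1.85, -1.29]). DOCK9 had 737 counts in shDEPDC1B and 1814 in shNC, 2.33-fold lower (-1.22 [-1.35, -1.10]). DOCK10 had 684 counts in shDEPDC1B and 1220 in shNC, 1.69-fold lower (-0.75 [-0.89, -0.62]). Summed over the 11 genes, DOCK counts came to 479 CPM (counts scaled to a common library size) in shDEPDC1B and 880 CPM in shNC, 1.83-fold lower, and 1.79-fold lower without DOCK5.

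The ARHGAP genes with the lowest ratios were ARHGAP42 and ARHGAP29, both GAPs for RHOA. ARHGAP42 (chromosome 11, 100687653 to 100993941, plus strand), also called GRAF3 and known for its part in smooth muscle tone, had 158 counts in shDEPDC1B, against 602 in shNC, 3.61-fold lower (-1.85 [-2.11, -1.59]). ARHGAP29 (chromosome 1, 94148988 to 94275068, minus strand), which acts downstream of RAP1 in endothelial cells, had 731 counts in shDEPDC1B and 2737 in shNC, 3.54-fold lower (-1.82 [-1.94, -1.71]). Coordinates of genes are those of GENCODE 29 on GRCh38. ARHGAP29 ranked number 8 of its family per kilobase of transcript in shDEPDC1B and number 3 in shNC.

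The related GAPs ARHGAP21 and ARHGAP23, which carry a PDZ domain, were both lower. ARHGAP21, a GAP for CDC42 at the Golgi, had 772 counts in shDEPDC1B and 2254 in shNC, 2.76-fold lower (-1.47 [-1.59, -1.35]). ARHGAP23 had 157 counts in shDEPDC1B and 328 in shNC (-0.98 [-1.27, -0.70]), but its deposited values are not whole hundredths, as means over 2 copies of a gene would be, so its count and interval are uncertain.

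The paralogs that encode p190 RhoGAPs, the widely expressed GAPs for RHOA, had ratios below 1 that differed in size. ARHGAP5 (p190B) had 1535 counts in shDEPDC1B, against 3519 in shNC, 2.17-fold lower (-1.12 [-1.20, -1.03]). ARHGAP35 (p190A) had 3311 counts in shDEPDC1B and 4969 in shNC, 1.42-fold lower (-0.51 [-0.57, -0.44]), below the 1.5-fold rule. The intervals of the pair, which cover counting error only, do not overlap. With the length and GC content fit described below subtracted, ARHGAP5 was at -0.35 and ARHGAP35 at -0.13. ARHGAP32, a GAP found at synapses, had 214 counts in shDEPDC1B and 485 in shNC (-1.10 [-1.34, -0.87]). ARHGAP26 (GRAF1), which shapes membrane in clathrin-independent endocytosis, had 1492 counts in shDEPDC1B and 2593 in shNC (-0.72 [-0.81, -0.63]). ARHGAP31 (CdGAP), a GAP for RAC1 and CDC42, had 66 counts in shDEPDC1B and 108 in shNC (-0.63 [-1.10, -0.18]) and lay just inside the rule.

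The ARHGAP genes that were higher in shDEPDC1B were ARHGAP4, ARHGAP19, ARHGAP27 and ARHGAP1. ARHGAP1, also called Cdc42GAP, had 1514 counts in shDEPDC1B, against 987 in shNC, 1.62-fold higher (0.70 [0.58, 0.81]). Per kilobase of its longest coding transcript it had 24.6 CPM in shDEPDC1B and 15.2 CPM in shNC. This made it the most abundant ARHGAP transcript in shDEPDC1B and number 7 in shNC. ARHGAP35 and ARHGAP12 followed in shDEPDC1B with 20.4 and 19.0 CPM per kilobase, and led in shNC with 28.99 and 23.9 CPM per kilobase. ARHGAP4, known from blood cells and neurons, had 74 counts in shDEPDC1B and 30 in shNC (1.38 [0.75, 2.05]). ARHGAP27 had 225 counts in shDEPDC1B and 133 in shNC (0.84 [0.52, 1.16]), with deposited values that look like a mean over 3 copies and are therefore uncertain.

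ARHGAP19 and ARHGAP11A, GAPs for RHOA that act in mitosis and cytokinesis, did not move together: ARHGAP19 was higher and ARHGAP11A was not called. ARHGAP19 had 500 counts in shDEPDC1B, against 214 in shNC, 2.47-fold higher (1.30 [1.07, 1.54]). ARHGAP11A had 218 counts in shDEPDC1B and 292 in shNC, a log2 ratio of -0.34 [-0.60, -0.08] that did not reach 1.5-fold. ARHGAP19 shares 26.8% of the 31-base words of its longest coding transcript with the read-through gene ARHGAP19-SLIT1, which had 0 counts in shDEPDC1B and 2 in shNC. ARHGAP11A shares 14.1% of its words with its partial copy ARHGAP11B, and its deposited values look like a mean over 4 copies. ARHGAP11B had 10 counts in shDEPDC1B and 24 in shNC, and both genes summed to 228 counts in shDEPDC1B and 316 in shNC (-0.39 [-0.64, -0.14]). Because the ARHGAP11A values look like a mean, its count, this sum and their intervals are uncertain.

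The starts of these mitotic GAPs are shown because a short word of cell cycle promoters, TTTGAA (the core of the cell cycle genes homology region, CHR), was looked for there. The sequences are RefSeq promoters on GRCh38.p14, 150 bases before to 10 bases after the start, 5′ to 3′ on the strand of the gene, at chr10:97292628-97292787 (minus strand) for ARHGAP19 and chr15:32614994-32615153 (plus strand) for ARHGAP11A. Capitals mark the word.
ARHGAP19: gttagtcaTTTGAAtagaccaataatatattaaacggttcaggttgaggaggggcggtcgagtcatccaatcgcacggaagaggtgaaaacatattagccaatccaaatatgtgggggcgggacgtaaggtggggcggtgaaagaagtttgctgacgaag
ARHGAP11A: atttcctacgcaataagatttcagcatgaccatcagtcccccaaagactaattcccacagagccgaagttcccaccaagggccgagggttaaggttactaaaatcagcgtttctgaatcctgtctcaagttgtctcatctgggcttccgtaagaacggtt
In ARHGAP19 the word begins 142 bases before the start, and in ARHGAP11A these letters are not in the window. Windows of 300 bases, 250 before to 50 after the start, were held for 55 of the 72 genes, and both strands were searched. The word stood in 1 of 5 windows of higher genes, 0 of 17 of lower genes, 0 of 20 of assessed genes that were neither, and 6 of 13 of genes not assessed, beside 15.2% of 35116 windows of all genes. The TEAD word GGAATG stood in 0 of 5 higher and 0 of 17 lower genes (14.0% of all windows), the antioxidant response core TGACNNNGC in 0 of 5 and 2 of 17 (13.3%), and the CArG box of SRF in 0 of 5 and 0 of 17 (1.29%).

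Among the other assessed ARHGAP genes the log2 ratios lay between -0.37 (ARHGAP22) and 0.44 (ARHGAP44). ARHGAP18, a GAP for RHOA, had 1199 counts in shDEPDC1B and 1319 in shNC (-0.06 [-0.17, 0.06]), and ARHGAP17 had 687 in shDEPDC1B and 760 in shNC (-0.07 [-0.22, 0.08]). Differences of these last genes were within counting error. ARHGAP24 (FilGAP), a GAP for RAC1, had 307 counts in shDEPDC1B and 289 in shNC (0.17 [-0.07, 0.40]). It shares 21.0% of its words with MAPK10, which lies on the opposite strand. ARHGAP8 had 75 counts in shDEPDC1B and 65 in shNC (0.29 [-0.21, 0.79]), but shares 89.6% of its 31-base words with the read-through gene PRR5-ARHGAP8. The read-through gene had 40 counts in shDEPDC1B and 0 in shNC, and both together had 115 counts in shDEPDC1B and 65 in shNC (0.90 [0.45, 1.36]), so the value for ARHGAP8 depends on how reads were shared between them.

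**Figure D2:**
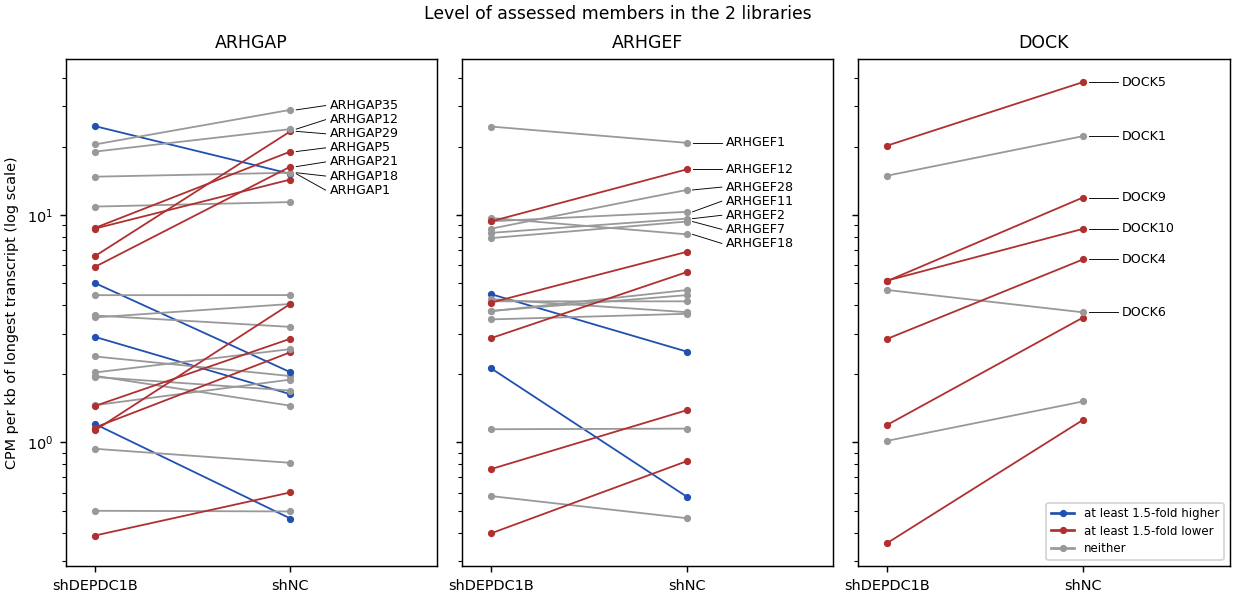
Level of assessed genes in shDEPDC1B (left) and shNC (right) in each family, as CPM per kilobase of the longest annotated coding transcript on a log scale. Lines join the 2 values of a gene and colours mark genes at least 1.5-fold higher, lower or neither. ARHGAP1 is at 24.6 CPM per kilobase in shDEPDC1B and 15.2 in shNC, while DOCK5 is at 20.2 in shDEPDC1B and 38.4 in shNC and leads its family in both libraries.

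The ARHGEF family held the highest ratio of all 56 genes and few large decreases. ARHGEF16 (ephexin 4), an exchange factor for RHOG that binds the receptor EPHA2, had 118 counts in shDEPDC1B, against 34 in shNC, 3.67-fold higher (1.88 [1.31, 2.47]). ARHGEF39 had 308 counts in shDEPDC1B and 182 in shNC, 1.79-fold higher (0.84 [0.57, 1.11]). ARHGEF39 shares 28.99% of its words with the overlapping gene CCDC107, which lies on the opposite strand. CCDC107 had 267 counts in shDEPDC1B and 248 in shNC.

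The ARHGEF genes that were lower were ARHGEF37, ARHGEF3, ARHGEF26, ARHGEF12 and ARHGEF10. ARHGEF12 (LARG), a RHOA exchange factor with an RGS domain that couples it to G proteins of heptahelical receptors, had 1651 counts in shDEPDC1B and 2954 in shNC, 1.69-fold lower (-0.76 [-0.85, -0.67]). It is the most counted ARHGEF gene, with 15.01% of the family's counts in shDEPDC1B and 21.3% in shNC. ARHGEF3 (XPLN), which acts on RHOA and RHOB, had 209 counts in shDEPDC1B and 431 in shNC, 1.95-fold lower (-0.96 [-1.21, -0.72]). ARHGEF37 had 36 counts in shDEPDC1B and 79 in shNC, and its log2 ratio of -1.05 [-1.66, -0.47] is among the least precise. ARHGEF26 (SGEF), an exchange factor for RHOG, had 73 counts in shDEPDC1B and 140 in shNC (-0.86 [-1.29, -0.44]), and ARHGEF10 had 424 in shDEPDC1B and 749 in shNC (-0.74 [-0.92, -0.57]). The deposited values of both ARHGEF26 and ARHGEF10 look like means over 2 copies and are uncertain. ARHGEF10 also shares 95.9% of its words with KBTBD11-OT1, which had 0 counts in shDEPDC1B and 2 in shNC.

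The relatives of ARHGEF12 with the same RGS domain were not lower by the rule. ARHGEF1 (p115-RhoGEF) had 1515 counts in shDEPDC1B and 1358 in shNC (0.24 [0.13, 0.34]) and was the most abundant ARHGEF transcript per kilobase in both libraries, at 24.5 CPM in shDEPDC1B and 20.8 CPM in shNC. ARHGEF11 (PDZ-RhoGEF) had 1178 counts in shDEPDC1B and 1370 in shNC (-0.14 [-0.25, -0.02]). ARHGEF2 (GEF-H1), an activator of RHOA held inactive on microtubules, had 675 counts in shDEPDC1B and 824 in shNC (-0.21 [-0.36, -0.06]). ARHGEF7 (beta-PIX), which binds PAK kinases, had 797 counts in shDEPDC1B and 996 in shNC (-0.24 [-0.38, -0.11]). ARHGEF28, at -0.57 [-0.68, -0.45] with 1008 counts in shDEPDC1B and 1577 in shNC, lay just outside the rule. Summed over the family, ARHGEF counts were 603 CPM in shDEPDC1B and 718 CPM in shNC, 1.19-fold lower, and ARHGAP counts were 883 CPM in shDEPDC1B and 1306 CPM in shNC, 1.48-fold lower.

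The 16 genes that were not assessed had at most 29 counts in a library. ARHGAP15, ARHGAP20, ARHGAP36, ARHGAP40 and ARHGEF15 had 0 counts in both. Some members known mainly from blood cells were also among the 16. ARHGAP9 had 2 counts in shDEPDC1B and 1 in shNC, ARHGAP25 had 11 in shDEPDC1B and 2 in shNC, and ARHGEF6 (alpha-PIX) had 20 in each. Low counts were not common to all such members, since ARHGAP4 was assessed, with 74 counts in shDEPDC1B and 30 in shNC. ARHGEF5 had 6 counts in shDEPDC1B and 1 in shNC and its near copy ARHGEF35 had 0 in shDEPDC1B and 4 in shNC, too few to show a difference at this depth. The same holds for ARHGAP6 with 1 count in shDEPDC1B and 7 in shNC, ARHGAP28 with 0 in shDEPDC1B and 5 in shNC, ARHGEF33 with 1 in shDEPDC1B and 3 in shNC, and ARHGEF38 with 4 in shDEPDC1B and 1 in shNC.

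Within the 56 assessed genes the log2 ratio moved with transcript length and GC content, as it did in the table as a whole. Spearman correlations were taken across genes, which share both libraries and are not replicates. They were -0.67 with the length of the longest annotated coding transcript and 0.65 with its GC content (n = 56). Over 12278 protein-coding genes they were -0.53 and 0.39. Length and GC content were themselves correlated among the 56, at -0.53. The 18 genes with the longest transcripts (6797 to 10111 nucleotides) had a median log2 ratio of -0.84, with 13 lower and 0 higher. The 1204 protein-coding genes in that length range had a median of -0.55, with 47.9% lower and 4.24% higher. The 19 genes with the shortest transcripts (1725 to 4462 nucleotides) had a median of 0.20, with 1 lower and 5 higher. The 6330 protein-coding genes in that range had a median of 0.15, with 11.0% lower and 20.6% higher, so these counts lie near the background.

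DOCK genes have long transcripts, with a median of 7370 nucleotides, against 4679 for ARHGAP and 5371.5 for ARHGEF. In the 564 protein-coding genes whose transcripts are as long as the middle of the DOCK family (6868.75 to 7969.5 nucleotides), 48.4% were lower, 3.37% were higher and the median log2 ratio was -0.56. The corresponding medians were -0.25 for the lengths of ARHGAP genes, where 26.7% were lower and 6.89% higher, and -0.20 for those of ARHGEF genes, where 23.1% were lower and 7.76% higher. With a linear fit on length and GC content subtracted, the medians became -0.52 for DOCK, -0.12 for ARHGAP and -0.09 for ARHGEF, beside 0.04 over all genes. After the fit, 11 of the 20 lower genes and 5 of the 6 higher genes were still past 1.5-fold. In all, 12 of the 56 genes were at least 1.5-fold lower (21.4%, against 13.9% of all genes with a known length) and 5 at least 1.5-fold higher (8.93%, against 13.3%). The gene added to the lower ones was ARHGAP22, at -0.69 after the fit and -0.37 before it, where its interval [-0.83, 0.08] held equality. The part that length and GC content have in the DOCK difference was not tested further.

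Some genes kept most of their difference after the fit and others did not. DOCK8 was then at -1.42, DOCK11 at -1.08, DOCK9 at -0.75 and DOCK4 at -0.68, whereas DOCK5 was at -0.36 and DOCK10 at -0.26. DOCK6, with a ratio above 1 before the fit, was at 0.38. ARHGAP29 was at -1.33, ARHGAP42 at -1.26, ARHGAP21 at -1.02 and ARHGAP23 at -1.01. However, ARHGAP5, with a transcript of 9604 nucleotides and 34.2% GC, was at -0.35, and its paralog ARHGAP35 was at -0.13. ARHGEF12 was at -0.14. Of the higher genes, ARHGAP19 was at 1.64, ARHGEF16 at 1.54, ARHGAP4 at 1.09, ARHGEF39 at 0.84, ARHGAP27 at 0.68 and ARHGAP1 at 0.56.

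**Figure D3:**
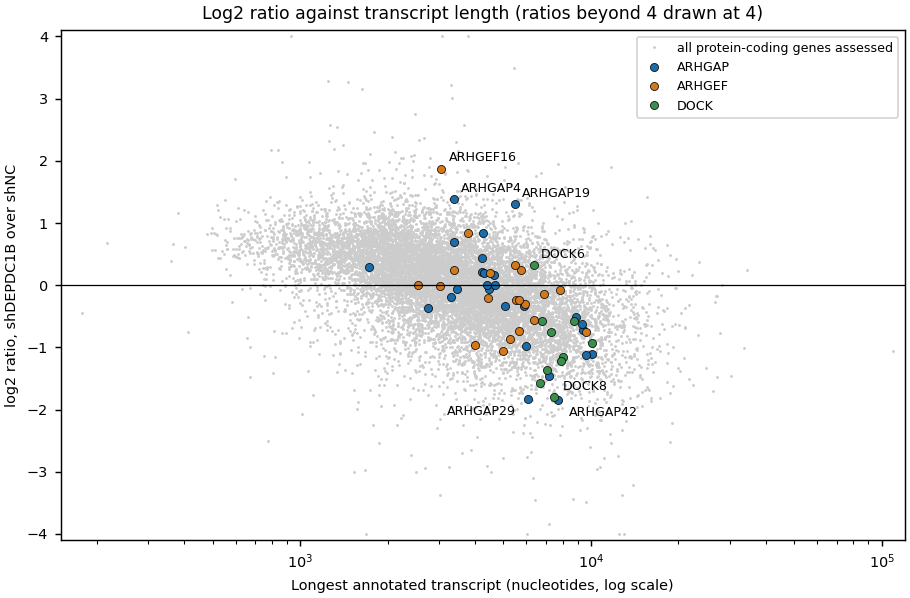
Log2 ratio (shDEPDC1B over shNC) against the length of the longest annotated coding transcript in nucleotides, log scale. Points are 12278 assessed protein-coding genes (grey, with ratios beyond 4 drawn at 4) and the assessed genes of the 3 families (coloured). Both the grey cloud and the family genes slope downwards with length; ARHGAP19, ARHGEF16 and DOCK6 lie above the cloud's middle, and ARHGAP29, ARHGAP42 and DOCK8 below it.

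The GTPases on which these proteins act were mostly level or higher. Of 16 assessed GTPase genes 5 were higher (31.2%, against 19.2% of all assessed genes) and 3 lower (18.8%, against 19.6%), with a median log2 ratio of 0.20. RAC1 had 7510 counts in shDEPDC1B, against 4908 in shNC (0.69 [0.64, 0.75]), whereas RHOA with 7657 in shDEPDC1B and 7906 in shNC (0.03 [-0.01, 0.08]) and CDC42 with 4867 in shDEPDC1B and 5035 in shNC (0.03 [-0.03, 0.09]) differed by no more than counting error. RHOG was at 0.80 [0.63, 0.97] and RND1, a constitutively GTP-bound relative that opposes RHOA, at 1.37 [1.14, 1.60], while RHOU was at -1.27 [-1.79, -0.76]. ARHGDIA, which holds these GTPases in the cytosol, was the 1 assessed RhoGDI gene of 3, at 0.13. The GTPase transcripts are short, with a median of 2298.5 nucleotides, and with the length and GC fit subtracted the list's median was 0.10, RAC1 was at 0.65 and RHOG at 0.21.

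Partners of DOCK1 and DOCK5 differed among themselves. The scaffold ELMO2 had 349 counts in shDEPDC1B and 855 in shNC (-1.21 [-1.40, -1.03]) and the adaptor CRK 705 in shDEPDC1B and 1398 in shNC (-0.91 [-1.04, -0.78]), with a CRK value that looks like a mean over copies. ELMO1, with 371 counts in shDEPDC1B and 393 in shNC, and CRKL, with 1296 in shDEPDC1B and 1297 in shNC, differed within counting error. The docking protein BCAR1 was at 0.26 [0.10, 0.42], also with a value that looks like a mean over copies.

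RhoGAPs and RhoGEFs with other names were lower more often than higher. The shares over all assessed genes were 19.6% lower and 19.2% higher. Among 2385 protein-coding genes with transcripts of 4488 to 6664 nucleotides, 28.5% were lower and 6.54% higher. Among 1204 with transcripts of 6797 to 10111 nucleotides, 47.9% were lower and 4.24% higher. Of 27 other assessed RhoGAP genes 13 were lower (48.1%), the hairpin target DEPDC1B among them, and 1, STARD8, was higher (3.7%). Their median was -0.54 (median transcript 5512 nucleotides). FAM13A was at -1.07 [-1.25, -0.89], while RACGAP1, the GAP of the central spindle, had 818 counts in shDEPDC1B and 811 in shNC (0.09 [-0.05, 0.23]). Of 32 other assessed RhoGEF genes 16 were lower (50.0%) and 1 higher (3.1%), with a median of -0.62 (median transcript 6608 nucleotides). That median length lies near the upper end of the range of 4488 to 6664 nucleotides. SPATA13 was at -1.37 [-1.64, -1.10], NET1 at -1.08 [-1.20, -0.96] and ECT2, the exchange factor that positions the cleavage furrow, at -0.58 [-0.66, -0.50], just outside the rule. FGD3, an exchange factor for CDC42, had 56 counts in shDEPDC1B and 12 in shNC (2.30 [1.39, 3.34]). With the length and GC fit subtracted the medians were -0.15 for the other RhoGAPs and -0.28 for the other RhoGEFs.

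Effector genes were found among both the higher and the lower genes, at shares not far from those of all assessed genes (19.2% higher, 19.6% lower). Of 15 RHOA effector genes 4 were higher (26.7%) and 4 lower (26.7%), with a median of -0.13. The kinase ROCK1 had 1079 counts in shDEPDC1B and 2600 in shNC (-1.19 [-1.29, -1.09]), whereas its paralog ROCK2 had 3934 in shDEPDC1B and 4691 in shNC (-0.17 [-0.24, -0.11]). PPP1R12A, the myosin phosphatase subunit that ROCK kinases phosphorylate, was at -1.12 [-1.23, -1.01], and LIMK1, the kinase of cofilin, at 1.05 [0.93, 1.17]. Of 29 assessed RAC and CDC42 effector genes 7 were lower (24.1%) and 4 higher (13.8%), with a median of -0.34. The kinase CDC42BPA was at -1.17 [-1.27, -1.07] and the polarity gene PARD6B at 0.99 [0.82, 1.16]. With the length and GC fit subtracted the medians were 0.07 for RHOA effectors and -0.05 for RAC and CDC42 effectors, and ROCK1 was at -0.55, CDC42BPA at -0.55, PPP1R12A at -0.67, LIMK1 at 0.84 and PARD6B at 1.32. ROCK1 and CDC42BPA were then below 1.5-fold, and ROCK2 was at 0.42, with the sign turned. None of these lists was tested, and all comparisons share the same 2 libraries.

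**Figure D4:**
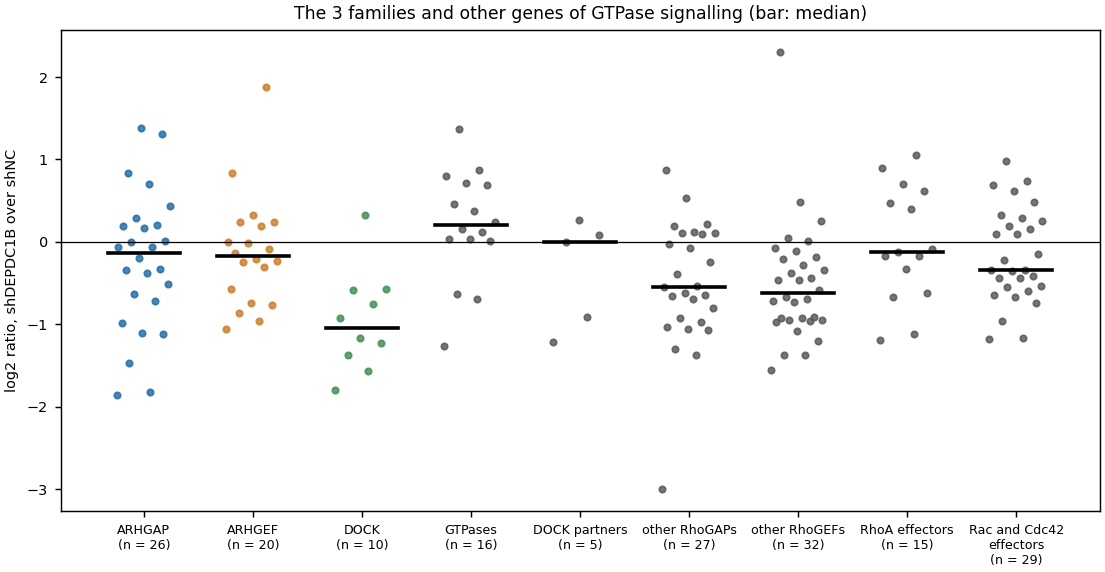
Log2 ratio (shDEPDC1B over shNC) of each assessed gene in the 3 families and in 6 lists of other genes of GTPase signalling; each point is a gene and each bar the median of its list. The DOCK median is -1.04, those of other RhoGAPs and other RhoGEFs are -0.54 and -0.62, and that of the GTPases is 0.20.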

How the data were processed

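The authors deposited estimated counts per gene symbol, not scaled for depth. Per the submitters' processing notes, Bowtie2 and RSEM were used with hg38; the sources used here do not give versions, annotation or strand. These expected counts were rounded to whole numbers and scaled with TMM factors (edgeR 4.0.16, R 4.3.3). No differential test was made, since each group has 1 library. Ratios carry exact Clopper-Pearson 95% intervals, and reads have no molecular identifiers, so intervals cover counting error only. Values that were not whole hundredths (tolerance 0.001 hundredths) occurred in 7 of the 72 genes. Transcript lengths, GC content and 31-base words shared with other genes of the table come from the longest coding transcript in GENCODE 29, and 93.8% of assessed genes entered the fit on length and GC content. RSEM divides shared reads by a model, whose error the intervals do not hold. Some genes are counted in totals and medians but not reported here by name. Other family genes may be named; per family, up to 6 higher and 6 lower genes ranked by how far the interval stays from equality, the 3 with the highest level per kilobase and genes with near copies were given with counts. Of the lists of other genes of this signalling, 7 fixed genes and up to 4 counted as higher or lower were eligible, and others are named as contrasts chosen after their values were seen. Members and lists were chosen with earlier results of these data known. The steps were tested on simulated counts. Alternatives were DESeq2 1.42.0 size factors, library totals, upper quartiles, other filters and thresholds, a loess on expression (span 0.3) and the length fit.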

Additional observations from a re-analysis of the deposited data

How the results depend on the processing

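With the fit on transcript length and GC content subtracted the number of family genes at least 1.5-fold lower was 12 in place of 20 (11 of the 20 and ARHGAP22), and the DOCK median -0.52 in place of -1.04. At a ratio of at least 2 the counts were 3 higher and 11 lower. Without genes whose values look like means over copies or that share over 10% of their 31-base words with other genes of the table, an alternative chosen after seeing the data, 3 were higher in place of 6. The counts fell by construction in these last cases, and the cause of the first was not tested. No family median and no gene counted as higher or lower changed sign under any of the scalings, filters or fits. DESeq2 size factors and upper-quartile factors left all 26 such genes within their main intervals, whereas the length and GC fit moved 16 beyond them, library totals 4 and the loess 1. The number of lower family genes still depended on the scaling. It was 22 with upper-quartile factors, 23 with DESeq2 size factors and 24 with library totals, in place of 20, while 6 were higher with each. No paired analysis was possible because each group has 1 library. Depth limits the genes under 30 counts, for which differences were mostly not detectable.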
